A study of Homo sapiens with 16 samples.

Results

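The 5 genes that encode the NF-kB transcription factor subunits were followed in 8 human B-cell lines treated with AFN700 or with its solvent DMSO. They are NFKB1, REL and RELA, taken as the classical subunits, and NFKB2 and RELB, taken as the alternative ones. They were found as the 12 probe sets that the array's platform annotation gives exactly 1 of these symbols. The probe set of highest mean intensity stands for a gene, and the 5 genes lie among 19775 genes with a probe set of their own. All 5 are among the 12305 genes whose intensity passed the filter on low values, and 10 of the 12 probe sets passed it.

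NF-kB proteins act as dimers that enter the nucleus and bind kappa-B sites in DNA. In the classical route the kinase IKKbeta phosphorylates the IkB inhibitors, whose destruction frees dimers that hold RelA or c-Rel together with p50. In the alternative route the kinases NIK and IKKalpha drive the cutting of the NFKB2 precursor to p52, which pairs with RelB. B cells use the classical route downstream of the B-cell receptor and the alternative one downstream of BAFF and CD40. NFKB1, NFKB2, REL and RELB are themselves known as genes that NF-kB can induce.

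AFN700 is an inhibitor of IKKbeta, given at 5 uM for 20 hours, and DMSO was given at 0.025% for the same time. Lines labelled sensitive to "stn" and ibrutinib, a BTK inhibitor, were REC-1 and SP49, with 1 AFN700 and 1 DMSO array each. Lines labelled insensitive were GRANTA-519, HBL-2, JVM-13, JVM-2, Maver-1 and Z-138, likewise with 1 AFN700 and 1 DMSO array each. This made 16 arrays, and the cell line is the replicate, so that the value of a single line has no error of its own and p-values measure the spread between lines. The series groups all 8 as mantle cell lymphoma lines. GRANTA-519 was grown in DMEM and the others in RPMI. The treated JVM-13 sample is titled AFN700 but carries AFN701 in its treatment label, and results are therefore also given without this line.

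Intensities are the authors' linear MAS5 values, and differences are AFN700 minus DMSO on the log2(intensity + 3.3) scale. The 6 measured B-cell markers, among them CD79A, MS4A1 and PAX5, were above the 60th percentile of their array on all 16 arrays. CCND1 and SOX11, defining genes of mantle cell lymphoma, averaged 78.9 and 0.3 in JVM-2 and 3.5 and 0.8 in JVM-13, against at least 283 and 518.5 in each other line. CD5, the other marker listed for this lymphoma, averaged 80.1 in Maver-1 and at most 15.1 in every other line. It was above the 60th percentile on 2 of the 16 arrays. Of the T-cell markers, CD3D averaged 153 and CD3E 118 in REC-1 and at most 10.2 and 3.8 elsewhere, while CD2 was at most 8.6 in every line. The summed level of the 3 T-cell markers ran from 5.0 to 313 with AFN700 and from 3.4 to 231.5 with DMSO, and that of 3 myeloid markers from 11.5 to 305 with AFN700 and from 9.8 to 145 with DMSO. Of the myeloid markers, LYZ reached 304 on an array, CSF1R at most 31.6 and CD14 at most 8.6. The sum of 3 fibroblast markers ran from 5.7 to 324 with AFN700 and from 11.6 to 623 with DMSO. Of these, COL1A1 reached 614 on an array, COL1A2 at most 17.2 and DCN at most 7.5. The sum of 3 epithelial markers ran from 5.6 to 469 with AFN700 and from 5.9 to 391.5 with DMSO. Of these, EPCAM reached 357 on an array, KRT18 at most 112 and CDH1 at most 31.7. The part of such transcripts in the results was not tested. One array differed in its general level, that of JVM-13 with DMSO. The median of its genes tested was 7.25 on the log2 scale, and each of the other 15 arrays had a median between 7.82 and 8.02. The 3'/5' ratio of actin, which is read as a sign of RNA quality, was 16.7 with AFN700 and 1.9 with DMSO in HBL-2, and 18.8 with AFN700 and 10.3 with DMSO in Maver-1. In the other 6 lines it was 2.09 to 6.39 with AFN700 and 2.01 to 5.06 with DMSO. Among these it was higher with AFN700 than with DMSO in SP49 (6.39 against 2.73), Z-138 (5.43 against 3.5) and JVM-13 (3.43 against 2.01). In REC-1 it was 4.62 with AFN700 and 5.06 with DMSO, and in GRANTA-519 and JVM-2 it was nearly equal on both arrays.

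Promoter windows were searched for NFKB1, REL, RELA and NFKB2, and RELB was not searched here. Of these 4 genes, 3 hold the kappa-B consensus, against 13.3% of all genes with a window, though genes differ in their number of windows. The windows are shown because the inhibited pathway ends at such sequences. The consensus searched was GGG, then a purine, any pair of bases, a pair of pyrimidines and CC, on both strands. Each window runs from 250 bases before to 50 bases after an annotated start, 5′ to 3′ on the gene's strand, from RefSeq on GRCh38.p14. Capitals mark the matches, and overlapping matches are joined.
NFKB1 at chr4:102501109-102501408: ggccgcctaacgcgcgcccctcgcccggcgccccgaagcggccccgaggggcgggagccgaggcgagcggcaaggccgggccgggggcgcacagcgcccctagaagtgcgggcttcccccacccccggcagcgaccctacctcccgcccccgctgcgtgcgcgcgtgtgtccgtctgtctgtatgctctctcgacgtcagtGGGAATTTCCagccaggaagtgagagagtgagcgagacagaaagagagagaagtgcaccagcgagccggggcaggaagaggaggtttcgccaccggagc
REL at chr2:60881324-60881623: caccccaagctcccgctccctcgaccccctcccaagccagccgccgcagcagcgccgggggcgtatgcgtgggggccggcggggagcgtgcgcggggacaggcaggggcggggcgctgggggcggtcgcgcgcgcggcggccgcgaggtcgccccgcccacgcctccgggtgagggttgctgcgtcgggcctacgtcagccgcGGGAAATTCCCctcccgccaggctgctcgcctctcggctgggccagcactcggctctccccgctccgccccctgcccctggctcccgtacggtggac
NFKB2, the second of its starts, at chr10:102394328-102394627: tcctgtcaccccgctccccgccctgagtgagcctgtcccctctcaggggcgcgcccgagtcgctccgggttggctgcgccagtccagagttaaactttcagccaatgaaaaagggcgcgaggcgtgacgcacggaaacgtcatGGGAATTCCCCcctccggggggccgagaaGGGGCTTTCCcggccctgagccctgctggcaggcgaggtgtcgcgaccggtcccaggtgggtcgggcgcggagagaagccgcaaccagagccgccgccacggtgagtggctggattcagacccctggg
NFKB2, the third of its starts, at chr10:102395455-102395754: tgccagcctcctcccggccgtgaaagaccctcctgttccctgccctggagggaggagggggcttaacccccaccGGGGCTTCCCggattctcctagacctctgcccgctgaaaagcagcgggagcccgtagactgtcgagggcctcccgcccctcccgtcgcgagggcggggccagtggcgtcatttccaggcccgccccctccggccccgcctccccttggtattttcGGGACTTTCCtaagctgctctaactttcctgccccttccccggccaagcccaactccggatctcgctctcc
All of these lie on the plus strand. RELA lies on the minus strand at chr11:65653601-65663857 and RELB at chr19:45001464-45038192. Counted from the start, the NFKB1 match begins at -49 and the REL match at -47. The NFKB2 matches begin at -107 and -78 from the one start and at -176 and -21 from the other. The letters were not in either window of RELA, in the other window of NFKB1 or in the first window of NFKB2, so that 4 of the 8 windows held a match. Among 35116 windows of 300 bases, 11.3% held one. A match is a description of the sequence and does not show binding in these cells.

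With AFN700, NFKB1 was lower in every line, RELB was lower in 6 of 8, NFKB2 in 5, and REL and RELA in 3. None of the 5 passed the threshold, an adjusted p under 0.05 by limma with Benjamini-Hochberg adjustment over the 12305 genes, and neither did any other gene (0 of 12305, 0%). At an unadjusted p under 0.05, 1006 genes (8.18%) were counted, 215 of them lower (1.75% of genes). NFKB1 was the only subunit among the 215. In bulk RNA, fewer cells with a transcript and less of it per cell cannot be told apart. Negative differences were found for 4564 genes (37.1%).

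NFKB1 encodes the precursor p105 and its product p50, the usual partner of RelA and c-Rel. Its intensity was 343 with AFN700 and 475 with DMSO in REC-1, and 269.5 with AFN700 and 472.5 with DMSO in SP49. In the 6 insensitive lines it ran from 164 over a median of 299 to 565 with AFN700, against 267 over 479 to 618 with DMSO. The treated and untreated ranges of the insensitive lines overlapped widely, since the lines differ more from each other than most of them moved. The paired differences all had the same sign. They were -0.46 in REC-1 and -0.80 in SP49, and -1.15 in GRANTA-519, -0.74 in HBL-2, -0.20 in JVM-13, -0.19 in Maver-1, -0.18 in Z-138 and -0.13 in JVM-2. GRANTA-519, SP49, HBL-2 and REC-1 thus had the most negative differences, and the other 4 lines stayed within 0.20 of no difference. The step from REC-1 to JVM-13 was smaller than the SD of the differences, 0.38. That SD itself holds any separation between lines, so whether these lines form separate sets cannot be told from it.

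The mean difference of NFKB1 was -0.48 ± 0.38 (SD, n = 8 lines), with an interval of -0.80 to -0.17 from limma (95%, SE 0.15), an unadjusted p of 0.00604 and an adjusted p of 0.472. It ranked 156 of the 12305 genes by p. In the exact 2-sided sign-flip test over lines, p was 0.00781, the smallest that 8 lines can give. Among all genes tested, 51 (0.414%) were likewise lower in 8 of 8 lines. Centring each array on the median of all its probe sets gave 0.03 for NFKB1 in JVM-13, and the sign then held in the 7 other lines, in which 247 genes (2.01%) were lower as deposited. Without JVM-13 the mean was -0.52, with an exact sign-flip p of 0.0156, again the smallest that 7 lines allow. Under DMSO, JVM-2, GRANTA-519 and JVM-13 held the highest NFKB1 levels, REC-1 and SP49 the next, then Maver-1, and HBL-2 and Z-138 the lowest. Gaps between these sets were over the single-array spread of 0.27 (the SD of the 8 differences over the square root of 2), and those inside them were not. This spread also holds any difference in response between the lines, so it is a rough guide for DMSO levels. Without JVM-13 it was 0.275 for NFKB1, 0.238 for RELA, 0.139 for REL, 0.369 for NFKB2 and 0.415 for RELB.

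**Figure D1:**
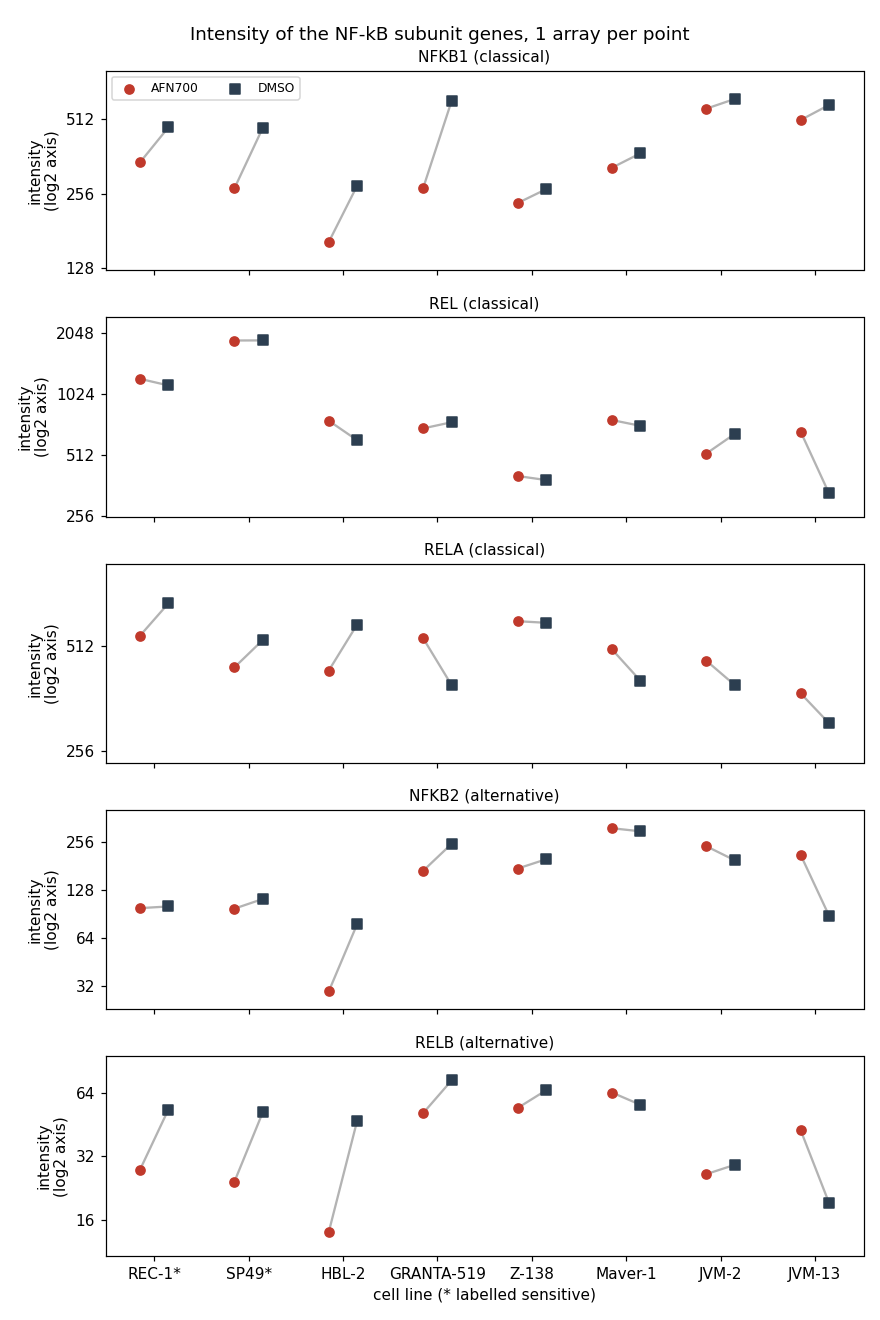
Intensity (log2 axis) of the probe set standing for each subunit gene in every line, with AFN700 (red circles, left) and DMSO (dark squares, right), 1 array per point and lines joining the arrays of 1 line. NFKB1 is lower with AFN700 in all 8 lines, and REL is highest in the sensitive lines REC-1 and SP49 (marked with *).

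RELA encodes p65, the main transactivating subunit of the classical route. It was 548 with AFN700 and 678 with DMSO in REC-1, and 445 with AFN700 and 532.5 with DMSO in SP49. In the insensitive lines it ran from 375 over 483 to 603 with AFN700, against 308 over 402 to 597 with DMSO. The values were lower with AFN700 in both sensitive lines and in HBL-2 (-0.43), near no difference in Z-138 (0.015) and higher in the other 4 lines, most in GRANTA-519 (0.44). The mean of the 8 differences was 0.03 ± 0.33 (SD), with a limma interval of -0.26 to 0.32 and an adjusted p of 0.965, and it was -0.003 without JVM-13. Under DMSO, REC-1, Z-138, HBL-2 and SP49 formed the upper lines of RELA, Maver-1, GRANTA-519 and JVM-2 the next and JVM-13 the lowest, with gaps over the single-array spread of 0.23 only between these sets. RELA varied least between lines with AFN700, where the highest line was 1.6 times the lowest. Its second probe set averaged 16.3, was above the 60th percentile on 0 arrays and was not tested.

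REL encodes c-Rel, the subunit most typical of lymphoid cells. On the probe set that stands for it, it was 1214 with AFN700 and 1127 with DMSO in REC-1, and 1873 with AFN700 and 1875 with DMSO in SP49. In the insensitive lines it ran from 404.5 over 679.9 to 762 with AFN700, against 332 over 629 to 743 with DMSO. On this probe set both sensitive lines were thus above all 6 insensitive lines under either treatment, with no overlap. The mean response of REL was 0.15 ± 0.39 (SD, n = 8), with a limma interval of -0.15 to 0.44 and an adjusted p of 0.776. JVM-13 alone gave 0.997, and without it the mean was 0.02.

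The difference between the sensitivity groups was largest for REL among the 5 genes. Under DMSO it averaged 1501 ± 529 in sensitive lines (SD, n = 2) and 572 ± 172 in insensitive lines (n = 6), a log2 difference of 1.40 ± 0.40 (SE), or 2.64-fold. Its unadjusted p in limma was 0.00597 and its adjusted p 0.606, and the exact test over all 28 ways to choose 2 of the 8 lines gave 0.0357, the smallest it can give. In that comparison 1 of the 12305 genes (0.00813%) passed the threshold, no subunit among them, and 702 (5.7%) had an unadjusted p under 0.05, of which 364 (2.96% of genes) were higher in sensitive lines. Both sensitive lines lay above all insensitive ones for 699 genes (5.68%) under DMSO and for 567 (4.61%) with AFN700. The other 4 REL probe sets gave DMSO differences of 0.98 to 1.27 in the same direction, each with an adjusted p of 0.904. On those 4 the groups mostly overlapped, since REC-1 lay below 1 insensitive line on each of them with AFN700 (GRANTA-519) and on 3 of them with DMSO (HBL-2). Their exact p under DMSO was 0.0714 to 0.143, so that separation under both treatments, and the smallest p, were found on 1 of the 5 probe sets. The order under DMSO put SP49 first and REC-1 next, each set off from its neighbour by more than the single-array spread of 0.28. GRANTA-519, Maver-1, JVM-2 and HBL-2 followed without gaps beyond it, and Z-138 and JVM-13 were lowest.

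The 5 probe sets of REL did not give the same response in every line. In HBL-2 the main probe set gave 0.32, while the others gave -1.86, -2.37, -1.61 and -1.20. In GRANTA-519 it gave -0.10 against 0.56, 0.52, 1.58 and 0.80. In JVM-13 it gave 0.997 against -0.37, -0.58, 0.22 and -1.12. HBL-2 is the line whose actin 3'/5' ratio differed most between its arrays, but in GRANTA-519 this ratio was 2.72 with AFN700 and 2.78 with DMSO. The part of RNA integrity in the disagreement was not tested. Over 8 lines the 4 other probe sets had mean differences of -0.41 to -0.11, none past the threshold among 23510 probe sets tested as rows of their own, of which 0 (0%) passed. The sign of the REL response therefore rests on the choice of probe set, while the direction of its DMSO difference does not.

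**Figure D2:**
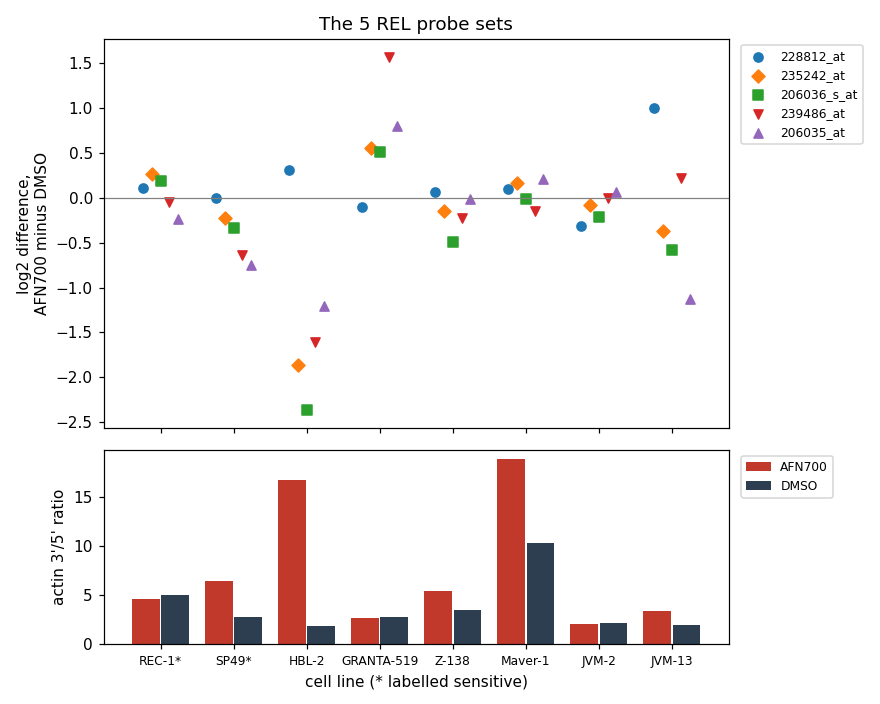
Top, log2 difference AFN700 minus DMSO on each of the 5 REL probe sets by line; bottom, actin 3'/5' ratio on the AFN700 and DMSO arrays (bars from 0). The probe sets disagree most in HBL-2, where the one standing for the gene (blue circles) is at 0.32 and the other 4 lie between -2.37 and -1.20.

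NFKB2 encodes the precursor p100 and its product p52, the DNA-binding partner of RelB. Its intensity was 98.2 with AFN700 and 101 with DMSO in REC-1, and 97.5 with AFN700 and 112 with DMSO in SP49. In the insensitive lines it ran from 29.6 over 192 to 311 with AFN700, against 77.9 over 197 to 297.5 with DMSO. The sensitive lines were near each other and inside the range of the insensitive ones under both treatments. Differences over the lines spread from -1.30 in HBL-2 to 1.23 in JVM-13, with -0.55 in GRANTA-519 and -0.19 to 0.29 in the other 5. The mean was -0.09 ± 0.72 (SD), with a limma interval of -0.58 to 0.41 and an adjusted p of 0.938. Without HBL-2 it was 0.09 and without JVM-13 it was -0.27.

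Under DMSO, NFKB2 split into an upper set of Maver-1, GRANTA-519, Z-138 and JVM-2 and a lower set of SP49, REC-1, JVM-13 and HBL-2. Between JVM-2 and SP49 lay a log2 gap of 0.79, against a single-array spread of 0.51, and no other gap in the order exceeded the spread. A second NFKB2 probe set averaged an intensity of 22.0 and was above the 60th percentile on 6 of 16 arrays. It gave a mean difference of -0.63 ± 0.22 (SE, limma over all probe sets, unadjusted p 0.0117, adjusted p 0.568). It differed from the main one in JVM-13, with an intensity of 9.9 with AFN700 and 30.3 with DMSO against 211 with AFN700 and 88.1 with DMSO on the main probe set. It also differed in Z-138 (-1.36 against -0.19 on the main one) and in JVM-2 (-0.65 against 0.29), and was lower with AFN700 in 7 of 8 lines, where the main one was lower in 5. The third NFKB2 probe set averaged 2.1, near the bottom of the scale, and was not tested.

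RELB encodes the transactivating subunit of the alternative dimer. It had 1 probe set, close to the filter limit, above the 60th percentile on 12 of 16 arrays. It was below that percentile with AFN700 in REC-1, SP49 and HBL-2 (limits 30.4, 29.8 and 24.7) and with DMSO in JVM-13 (24.6). These lines had the largest RELB differences in either direction, so each of those differences rests on 1 array below the limit. The intensity of RELB was 27.6 with AFN700 and 53.2 with DMSO in REC-1, and 24.2 with AFN700 and 51.6 with DMSO in SP49. In the insensitive lines it ran from 14 over 46.8 to 64.1 with AFN700, against 19.2 over 51.6 to 73.1 with DMSO. With AFN700 the sensitive lines thus lay in the lower part of the insensitive lines' range, and with DMSO in its middle. The differences were -0.87 in REC-1, -0.997 in SP49, -1.54 in HBL-2, -0.49 in GRANTA-519, -0.26 in Z-138, -0.13 in JVM-2, 1.02 in JVM-13 and 0.18 in Maver-1. Under DMSO, JVM-2 and JVM-13 held the lowest RELB levels, and the other 6 lines followed each other without a gap over the single-array spread of 0.56.

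The mean difference of RELB was -0.39 ± 0.79 (SD, n = 8), with a limma interval of -0.92 to 0.15 and an adjusted p of 0.688, and its exact sign-flip p was 0.211. Without JVM-13 the mean was -0.59, the exact sign-flip p 0.0469 and limma's adjusted p 0.219. RELB had the largest difference between the responses of the sensitivity groups among the 5 genes. Its response was -0.93 ± 0.49 (SE, limma) in sensitive and -0.20 ± 0.28 in insensitive lines. The difference of these responses was -0.73 ± 0.56, with an unadjusted p of 0.218 and an adjusted p of 1, and its interval of -1.96 to 0.50 included 0. For RELA the response was -0.28 ± 0.26 in sensitive and 0.14 ± 0.15 in insensitive lines, and the difference -0.42 ± 0.30 (unadjusted p 0.193). For NFKB1 the difference was -0.20 ± 0.36 (unadjusted p 0.583). None of the subunits passed in the sensitive lines, in the insensitive lines or in the difference between them, where 0 genes (0%) passed in each, against 351 (2.85%), 743 (6.04%) and 182 (1.48%) genes at an unadjusted p under 0.05. The 1 subunit under that unadjusted value was NFKB1 in the insensitive lines, at -0.43 ± 0.18 (p 0.0326, adjusted p 0.758).

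**Figure D3:**
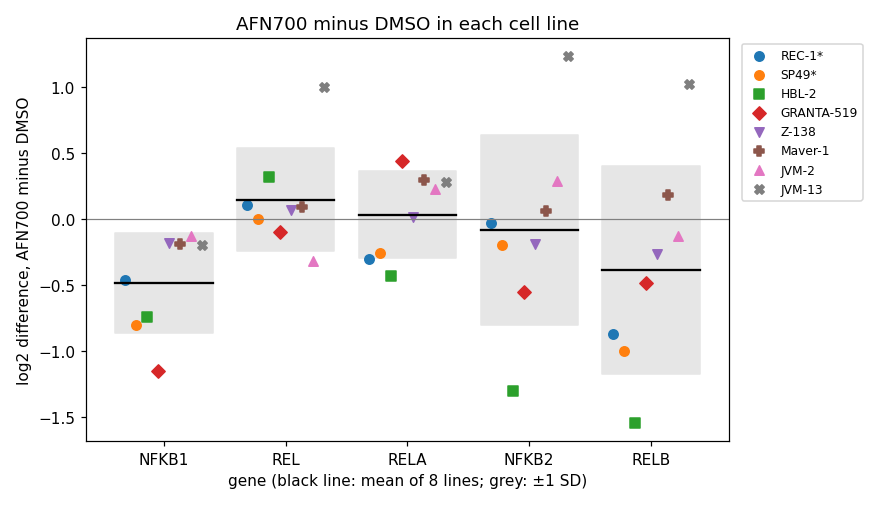
Log2 difference AFN700 minus DMSO of each subunit gene, 1 point per line, with the mean of 8 lines (black) and ±1 SD (grey). All NFKB1 points lie below 0, between -1.15 and -0.13, while JVM-13 lies above 0 for the other 4 genes.

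Set side by side, the classical subunits had a mean difference over lines and genes of -0.10 and the alternative subunits of -0.24. Without JVM-13 these means were -0.17 and -0.43, and without HBL-2, with JVM-13 kept, they were -0.08 and -0.07. The mean gap between the arms thus depended on both HBL-2 and JVM-13. The arm means also rest on the probe set that stands for each gene. With the mean of all probe sets, REL was at -0.175 and NFKB2 at -0.319 over 8 lines, against 0.145 and -0.086 here. By line, the classical mean was -0.22 in REC-1, -0.35 in SP49, -0.29 in HBL-2 and -0.27 in GRANTA-519, and the alternative mean -0.45, -0.60, -1.42 and -0.52 in the same lines. In Z-138, Maver-1 and JVM-2 both means were within 0.23 of no difference. In JVM-13 they were 0.36 and 1.13. The alternative mean was thus lower than the classical one in 5 lines, and the gap was largest in HBL-2 and, with the opposite sign, in JVM-13. The classical mean joins an NFKB1 that was lower in every line with a REL and a RELA that were not.

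At least 2-fold lower between the 2 arrays of a line were NFKB2 and RELB in HBL-2, where 549 genes (4.46%) were, and NFKB1 in GRANTA-519, where 747 genes (6.07%) were. At least 2-fold higher were NFKB2 and RELB in JVM-13, where 3162 genes (25.7%) were. The median difference of the genes tested was 0.28 in JVM-13 and 0.17 in HBL-2 and lay between -0.05 and 0.05 in the other 6 lines. Centring each array on the median of the genes tested left NFKB2 at 0.56 and RELB at 0.36 in JVM-13, put NFKB1 there at -0.87, and gave RELA -0.39 against 0.28 as deposited. In HBL-2 the same centring gave -1.51 for NFKB2 and -1.75 for RELB.

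NFKB2 and RELB moved together over the lines, with r = 0.887 and rho = 0.857 between their 8 differences. Without JVM-13 and HBL-2, the lines farthest from the median of RELB, r was 0.394, so that the relation rests on these lines. Across the arms, NFKB1 and NFKB2 had r = 0.62 and rho = 0.69, and r = 0.84 without the same lines. RELA and RELB had r = 0.767 and rho = 0.714, and r = 0.739 without the same lines. RELB against NFKBIA, which encodes the inhibitor IkB-alpha and is a standard NF-kB target, had r = 0.885 and rho = 0.833, and r = 0.588 without JVM-13 and Maver-1. RELB against TNFAIP3, which encodes the feedback enzyme A20, had r = 0.824 and rho = 0.857, and r = 0.810 without SP49 and JVM-13. NFKB1 against the cytokine subunit gene EBI3 had r = 0.839 and rho = 0.762, and r = 0.828 without JVM-13 and GRANTA-519. These are descriptions over 8 points that share their arrays, taken from 10 pairs of subunits and 30 pairs with 6 pathway genes.

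**Figure D4:**
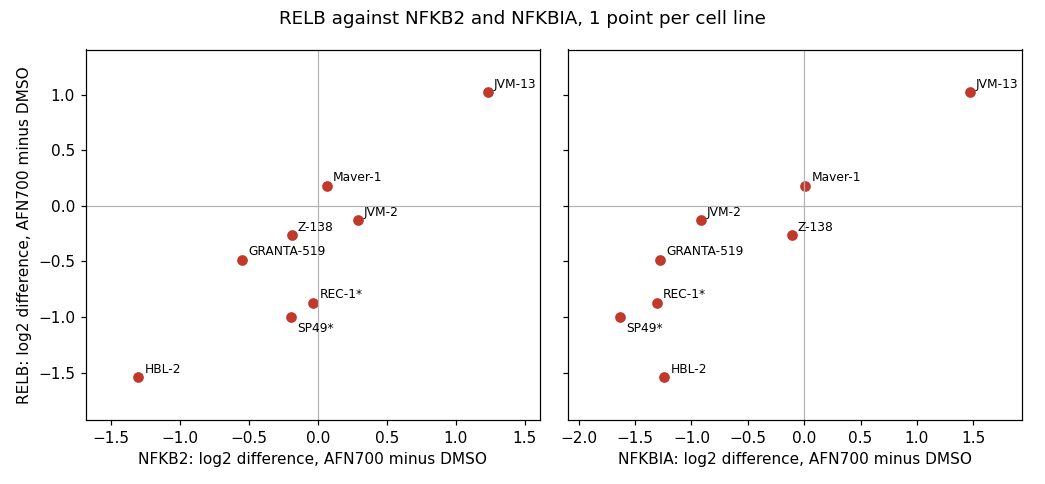
Log2 difference AFN700 minus DMSO of RELB against that of NFKB2 (left) and NFKBIA (right), 1 point per line (* labelled sensitive). HBL-2 and JVM-13 mark the ends of the left panel, and JVM-13 alone lies far above 0 on both axes of the right one.

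The genes closest in pattern to each subunit were taken by Pearson's r over the 8 differences, among 9263 genes with a range of at least 1. NFKB1 was closest to TMEM119 (r = 0.987), ANKRD29 (0.958) and CD1C (0.938). REL was closest to LRRC61 (0.988), TUBB2A and ARMC6, and RELA to ABCA11P (0.967), GK3 and BCL7C. NFKB2 was closest to KEAP1 (0.991), MRPL11 and MRPL28, and RELB to SECISBP2 (0.981), EOLA1 and EARS2. Without JVM-13, r with the first gene named stayed at 0.956 or above for each subunit. By DMSO level, among 10629 genes, NFKB1 was closest to LACTB (0.961), GCH1 and SPECC1, and REL to LILRA2 (0.985), BCL9L and SASH3. RELA was closest to GOPC (0.943), SCML2 and ETNK1, NFKB2 to NAV2 (0.981), ZNF528 and TRIM26, and RELB to YPEL1 (0.987) and KHDC4 (0.973). CCND1, the cyclin gene that defines mantle cell lymphoma, was the third closest to RELB (0.971, and 0.926 without JVM-13), both genes being lowest in JVM-13 and JVM-2. No other subunit was among the 3 closest genes of a subunit. These values of r describe 8 points each and carry no test. They are the highest of all genes ranked, and those without JVM-13 use lines that also picked the genes.

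The rest of the pathway was taken from a list of 5 roles, none of whose genes passed the threshold in any comparison. Of the target genes, 12 of 12 had a negative mean difference over 8 lines, against 37.1% of all genes, with a median of -0.60 against 0.06. At an unadjusted p under 0.05, 9 of the 12 were lower, against 1.75% of all genes. The smallest p was that of BCL2A1, a survival gene of the BCL2 family, at -0.51 ± 0.15 (SE, adjusted p 0.466, limma). LTA, the lymphotoxin-alpha gene, was next by p at -0.79 ± 0.24, and then TNFAIP3 at -0.90 ± 0.28. By size the chemokine gene CXCL10 came first at -1.74 ± 0.62, with EBI3 at -1.15 ± 0.41. None of the 12 was lower in all 8 lines, and BCL2A1, CCL22, LTA and LTB were lower in 7. NFKB1 itself stood at -0.48 ± 0.15 on the same scale.

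In the sensitive lines the 12 targets had a median of -1.30 against 0.04 over all genes, and 8 had an unadjusted p under 0.05, the lower side of which held 80 genes (0.65%). Negative differences there were found for 5390 genes (43.8%). TNFAIP3 was at -2.11 ± 0.42 and NFKB1 at -0.63 ± 0.31 (SE, both with an adjusted p of 1). The targets had already been seen to be lower in these data, so their counts are no independent evidence.

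Of 8 tested inhibitors and partners of the subunits, 5 had a negative mean difference over 8 lines, with a median of -0.08. NFKBIA was at -0.63 ± 0.29 (SE, adjusted p 0.606), with -1.63 to -1.24 in SP49, REC-1, GRANTA-519 and HBL-2 and 1.47 in JVM-13. NFKBIZ, an atypical nuclear IkB gene, was at -0.18 ± 0.12 and NFKBIE, the IkB-epsilon gene, at -0.19 ± 0.19. SP49, REC-1, GRANTA-519 and HBL-2 also had the most negative differences of NFKB1. In JVM-2, however, NFKBIA was at -0.92 and NFKB1 at -0.13.

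Of 12 tested genes upstream in the classical route, 4 were lower and 8 higher, with a median of 0.05, near that of all genes. IKBKB, which encodes the kinase that AFN700 inhibits, was at 0.27 ± 0.12 (unadjusted p 0.0459, adjusted p 0.605) and lower in 1 of 8 lines. BTK, the kinase that ibrutinib inhibits, was at 0.30 ± 0.21, with 2.03 in JVM-13, and IKBKG, the scaffold of the kinase complex, at 0.17 ± 0.14. Of 6 tested genes upstream in the alternative route, the median was -0.01. BIRC2, a ubiquitin ligase that holds NIK low, was at 0.29 ± 0.15, the receptor gene CD40 at -0.38 ± 0.36 and MAP3K14, which encodes NIK, at 0.12 ± 0.17. The 7 genes of processing ligases and coactivators had a median of -0.01, with BTRC, a ligase component that marks IkB, at 0.19 ± 0.17, CUL1 at -0.06 ± 0.12 and PELI1 at -0.07 ± 0.14.

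Beside the high REL, DMSO levels were higher in sensitive lines for 5 of the 6 tested genes upstream in the alternative route and lower for 1, where 45.1% of all genes were lower, with a median of 1.05 against 0.07 over all genes. The lower gene was MAP3K14, the NIK gene, at -0.72 ± 0.53 (SE, unadjusted p 0.201). TNFRSF13C, the BAFF receptor gene, was at 2.02 ± 0.61 (SE, unadjusted p 0.00845, adjusted p 0.705), TNFRSF13B, the TACI receptor gene, at 1.25 ± 0.51 and BIRC2 at 0.93 ± 0.40. CD40 was at 1.17 ± 0.88 (unadjusted p 0.216) and TRAF3, an adaptor that holds NIK low, at 0.84 ± 1.60 (unadjusted p 0.609). None of these genes passed the threshold. Of the alternative subunits under DMSO, NFKB2 was at -0.62 ± 0.60 (adjusted p 0.915) and RELB at 0.23 ± 0.61 (adjusted p 0.955). NFKB1 was at 0.15 ± 0.44 and RELA at 0.46 ± 0.36. Of the 8 tested inhibitors and partners of the subunits, 6 were higher in sensitive lines and 2 lower. The partner gene MAP3K8, whose kinase is held by p105, was at 2.64 ± 0.82 (limma, unadjusted p 0.00955, adjusted p 0.730). NFKBID was at 2.64 ± 1.025 (limma, unadjusted p 0.0287, adjusted p 0.861). Of the targets, LTB was at 3.59 ± 0.63 (limma, adjusted p 0.202).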

How the data were processed

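The authors deposited linear probe set intensities made with MAS5, per the submitters' processing notes; the version is not given in the sources used here. All arrays share a trimmed mean of 150 (2% off either end). No detection calls were used. Of 54675 probe sets, 41097 have 1 gene in the platform annotation, 1801 have several, and 11777 are not listed and are unnamed here. The highest-mean probe set stood for each gene. Values were taken as log2(intensity + 3.3), 3.3 being the 25th percentile of all values, and no further normalization was applied. Genes above the 60th percentile of an array on 2 or more arrays were tested.

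Tests used limma 3.58.1 in R 4.3.3 (lmFit, eBayes with a trend) over all genes tested, with Benjamini-Hochberg adjustment and 0.05 as the threshold. The cell line, which both arrays of a pair share by the labels, was a fixed block (7 residual degrees of freedom with 1 treatment term, 6 with a term per sensitivity group). The DMSO comparison used the 8 DMSO arrays. Single values were also tested 2-sided and exactly, by sign flips or splits of lines. Alternatives were other pseudocounts, normalizations, filters and probe set rules, no trend, no line block, and leaving out each line. Centring on the genes tested and leaving out JVM-13 and HBL-2 together were chosen after seeing the data. On simulated arrays, 84 of 100 genes changed by a log2 of 1 and 99 of 100 changed by 2 were recovered in the 8-line comparison of 12305 genes, with 13 false calls. The simulation had independent noise and the same change in every line, without shared array effects or uneven responses. Smaller changes, such as that of NFKB1, were not simulated. Precision is limited by the number of arrays.

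The subunits and all gene lists were chosen with earlier results of these data known. All subunits and probe sets are named. For each subunit, the 3 genes of highest Pearson's r were named, and for each pathway role and comparison described, the genes of smallest p, at most 3. Genes of the pathway list that were not tested, BIRC3, LTBR, TRAF2 and BCL3 among them, are not reported here.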

Additional observations from a re-analysis of the deposited data

Results flagged for a closer look

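The NFKB2 level of HBL-2 with AFN700 was far below those of the other 5 insensitive lines, at a log2 level of 5.04 against 7.42 to 8.30. Its gap to the nearest line was 0.732 of the range, above Dixon's 95% critical value of 0.625 for 6 lines. It was the 1 such value in 20 groups examined, and chance gives about 1 in 20. The actin 3'/5' ratio of that array was 16.7, against 1.9 on the DMSO array of the line, and its part in the value was not tested.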

How the results depend on the processing

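NFKB1 kept a negative response over 8 lines, never past the threshold in limma, under every alternative run (-0.58 to -0.39). REL kept its higher DMSO level in sensitive lines (1.04 to 1.77, lowest without SP49), also short of the threshold. Without the cell line as replicate block, the NFKB1 mean of -0.48 had an adjusted p of 1, against 0.472 with it, and 0 genes passed. Low values near background limit RELB and the lower probe sets. The count of genes passing over 8 lines, 0, ranged from 0 to 10 with single lines left out (10 without JVM-13, no subunit among them) and was 37 without JVM-13 and HBL-2, again without a subunit, and the count in sensitive lines was 5 there, against 0. The DMSO count of 1 was 3 with a pseudocount of 16, 5 without a filter, 8 without a trend and 0 with a filter on 8 arrays, with both other probe set rules and without JVM-13 and HBL-2, and ranged from 0 to 46 with single lines left out (46 without SP49). The exact tests, which are not adjusted, put NFKB1 at -0.48 and REL under DMSO at 1.40 below 0.05.

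None of the values that changed sign passed the threshold, and the cause was not tested. Centring on all probe sets gave REL -0.028 in sensitive lines. Centring on the genes tested gave RELA -0.065 over 8 lines, REL 0.001 and NFKB2 0.087 for the difference of responses, and NFKB1 -0.01 for the DMSO comparison. The mean of all probe sets gave REL -0.18 over 8 lines, -0.17 in sensitive lines, -0.18 in insensitive lines and 0.009 for the difference of responses. The second probe set gave REL -0.21 over 8 lines, -0.29 in insensitive lines and 0.31 for the difference, and NFKB2 0.21 for the difference. Without JVM-13 and HBL-2, REL was -0.026 over 8 lines, -0.065 in insensitive lines and 0.12 for the difference, and RELB -0.019 for the DMSO comparison. With single lines left out, NFKB2 ranged from -0.274 to 0.088 over 8 lines, -0.34 to 0.17 in insensitive lines and -0.28 to 0.23 for the difference. RELA ranged from -0.025 to 0.1 over 8 lines, REL from -0.002 to 0.11 in sensitive lines and -0.221 to 0.042 for the difference, and RELB from -0.448 to 0.065 in insensitive lines (0.065 without HBL-2).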
